A study of Mus musculus with 7 samples.

Results

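The genes described here carry out S phase, the stage of the cell cycle in which a cell copies its DNA. They are 37 genes, all of them measured, of the 16156 genes in the deposited tables, and they were chosen by name for their known roles in loading and starting the replicative helicase, copying DNA, joining the copied strands, supplying deoxynucleotides and switching S phase on. RNA-seq was made from mouse CD8 T cells carrying the OT-I receptor, a transgenic receptor for an ovalbumin peptide. The cells were either ACLY knockout (KO, 3 libraries) or wild type (WT, 4 libraries). All were congenically marked, came from strain C57Bl/6, and were placed in C57Bl/6 mice 1 day before these were infected with Listeria monocytogenes expressing ovalbumin (LmOVA). The transferred cells were taken back 6 days after infection, so both genotypes had been through transfer and infection. The hosts have lymphocytes of their own. The sources used here do not give how the knockout was made, which cells carried it or how the transferred cells were sorted, nor do they say whether each library came from a separate animal, so the p-values measure only the spread between these libraries. ACLY makes acetyl-CoA from citrate outside the mitochondria.

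In G1 phase the origin recognition complex, Cdc6 and Cdt1 load the ring of Mcm2 to Mcm7 onto DNA. At S phase Cdc45 and the GINS complex (Gins1 to Gins4) join the ring and turn it into a running helicase, polymerase alpha with primase starts each strand, and polymerases delta and epsilon extend it on the Pcna clamp. Many of these genes are transcribed by E2F factors once cyclin-dependent kinases have released them from RB proteins, and CD8 T cells responding to infection are known for rapid division during their expansion.

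The libraries held 37473484 to 75586011 counts. T cell genes were present in every library, with Cd3e at 453 to 948 CPM (counts scaled to the library total and between libraries) in KO and 956 to 1162 CPM in WT. Acly itself was at 62.0 to 262 CPM in KO and 276 to 414 CPM in WT, so its transcript was detected in every library labelled KO. Of the counts on T cell receptor beta V segments, Trbv12-1 and Trbv12-2 (the V beta 5 family of the OT-I receptor) took 99.0% to 99.2% in WT replicates 1 to 3, 84.5% in WT replicate 4, and 46.7%, 23.2% and 61.8% in KO replicates 1 to 3. KO replicate 1 also carried B cell and red cell RNA. What part cells without the OT-I receptor have in the KO values, or in those of WT replicate 4, was not tested. Because these libraries are bulk samples, a lower level can come from fewer cells in S phase or from less RNA in each cell, and these cannot be told apart.

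The replication genes were highest in WT replicate 4. Values are listed in the order KO replicates 1 to 3, then WT replicates 1 to 4, throughout, means with the SD over these 3 and 4 libraries, and differences as log2 KO minus WT ± SE. The summed level of the 37 genes was 2432, 1818 and 1742 CPM (KO) and 2039.9, 1911, 2106 and 5777 CPM (WT). WT replicate 4 therefore held 2.86 times the mean of WT replicates 1 to 3. WT replicates 1 to 3 lay close together, and the KO libraries lay on both sides of them. WT replicate 4 was the highest WT library for all 37 members, where this held for 38.0% of all genes, and the highest of the 7 libraries for 35 members (20.7% of all genes). The exceptions were Pold1 and Rfc1, both highest in KO replicate 1. Its level was at least 2-fold the mean of WT replicates 1 to 3 for 26 members, against 12.9% of all genes. The median ratio over the members was 3.64, from 1.26 for Rpa1 to 71.2 for Mcm10, and the median over all genes was 0.973.

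KO replicate 1 was next in summed level. Without WT replicate 4, it was the highest of the 6 libraries for 22 members (25.1% of all genes), and it was at least 2-fold the mean of KO replicates 2 and 3 for 13 members (17.5% of all genes). KO replicate 3 was the lowest of the 7 libraries for 19 members (21.2% of all genes). The libraries of each genotype therefore did not form tight groups for these genes, and differences that move with WT replicate 4 are given with and without it.

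**Figure D1:**
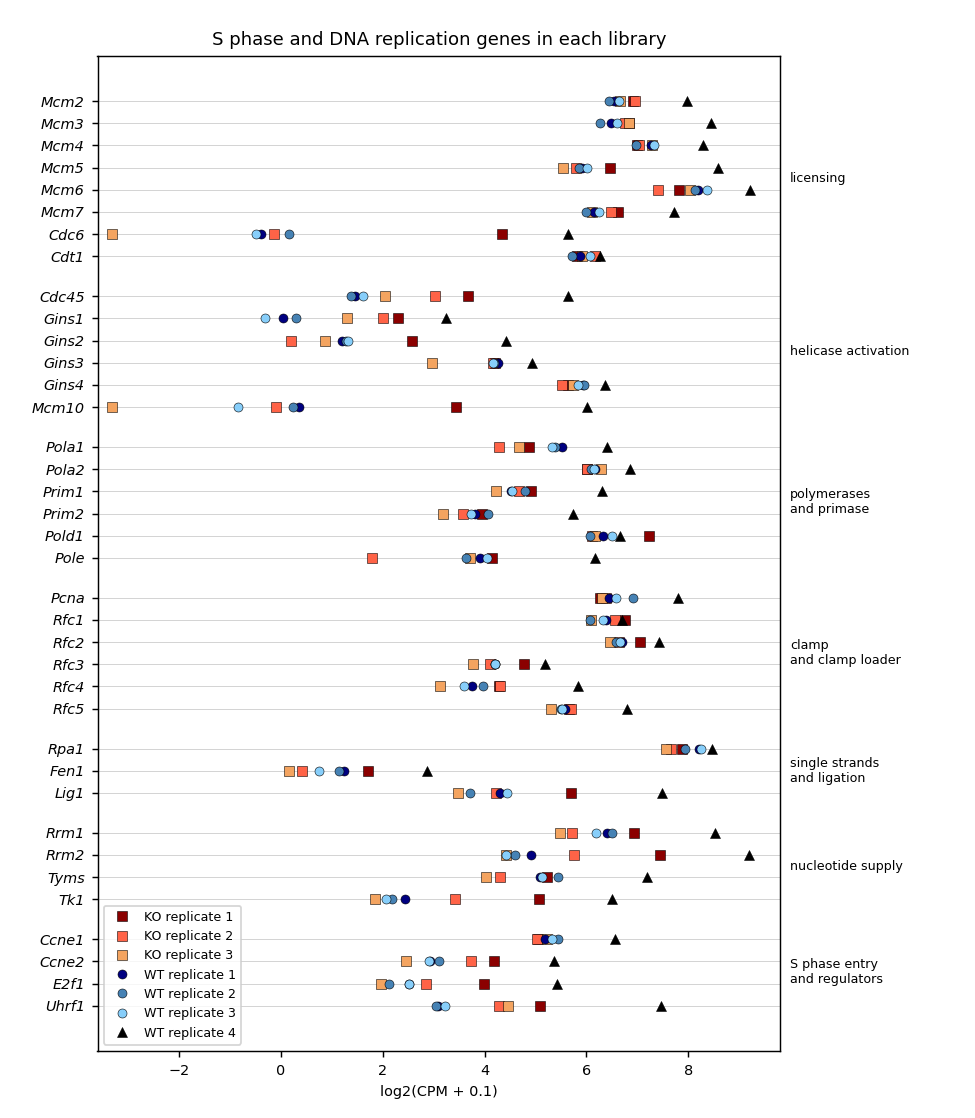
Level of each of the 37 genes in each library, as log2(CPM + 0.1), with KO libraries and WT replicates 1 to 3 and 4 drawn as separate symbols and genes ordered by role. WT replicate 4 lies furthest right for 35 genes, and the points furthest left belong to Cdc6 and Mcm10 in KO replicate 3, which had 0 counts.

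By role, WT replicate 4 stood furthest from the other WT libraries in nucleotide supply, where the median ratio to the mean of WT replicates 1 to 3 was 12.1, and in helicase activation, where it was 9.69. The ratio was 6.74 for the regulators of S phase entry, 3.64 for single-strand binding and ligation, 2.85 for licensing, 2.61 for the polymerases and 2.09 for the clamp and its loader. The 4 nucleotide supply genes summed to 366, 137 and 85.2 CPM (KO) and 153, 163, 134 and 1194 CPM (WT). The 6 clamp and loader genes summed to 415, 366 and 296 CPM (KO) and 354, 362, 352 and 702 CPM (WT), a much narrower range.

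**Figure D2:**
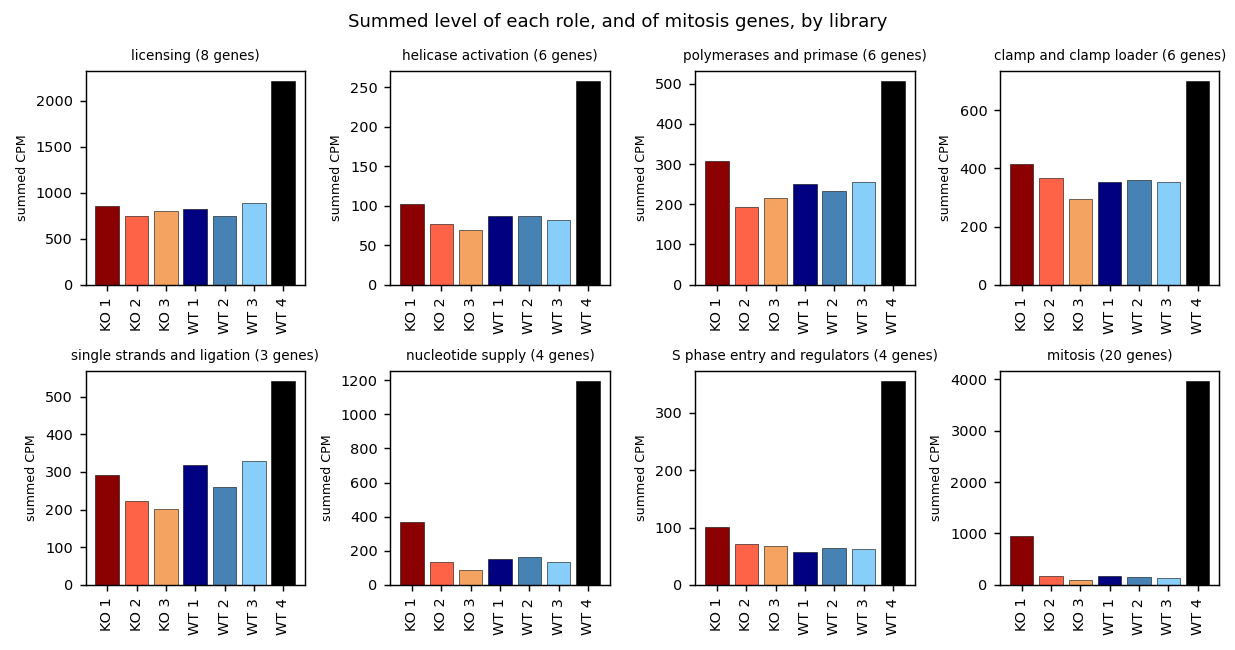
Summed CPM of the genes of each role, and of 20 mitosis genes, in the 7 libraries, with 1 bar per library and each panel on its own linear axis from 0. WT replicate 4 is the highest bar in every panel. Among the roles its ratio to WT replicates 1 to 3 is largest for nucleotide supply, at 1194 CPM against 134 to 163 CPM.

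The members were high together in WT replicate 4, and the letters of their promoters are shown beside that. The table of RefSeq gene starts (build GRCm38.p6) held 29 of the 37 members in 34 windows, among 32851 windows for all genes. In the 250 bases upstream of each start, the E2F-type motifs TTTGGCGC, TTTCCCGC and TTTCGCGC were sought on both strands, so that TTTGGCGC and TTTCGCGC on opposite strands can overlap. At least 1 of them was present in 8 of the 34 windows (23.5%), against 1.53% of all windows. The 8 members were Cdc6, Gins3, Mcm5, Mcm6, Mcm7, Pola1, Rfc3 and Uhrf1. CCAAT, the letters bound by NF-Y, was present in 19 of the 34 windows (55.9%, against 33.8% of all), and TTTGAA, the core of the CHR element of late cell cycle genes, in 4 (11.8%, against 16.0%). The 20 mitosis genes compared below had a higher median ratio of WT replicate 4 to WT replicates 1 to 3, at 35.7. Of their 17 windows, 1 held an E2F-type match, 15 held CCAAT and 7 held TTTGAA. The stretches around the E2F-type matches of 5 members are printed 5′ to 3′ on the strand of the gene to show how the letters are placed, with the matches, on either strand, in capitals. They lie at chr11:98907983-98908050 (plus strand, 130 bases before the start), chr8:95633488-95633555 (plus, 33 bases), chr1:128359715-128359845 (minus, the nearer match 39 bases), chrX:93632256-93632323 (minus, 130 bases) and chr17:56304098-56304165 (plus, 177 bases).
Cdc6: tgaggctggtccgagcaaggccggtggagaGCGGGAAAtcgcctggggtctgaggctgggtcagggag
Gins3: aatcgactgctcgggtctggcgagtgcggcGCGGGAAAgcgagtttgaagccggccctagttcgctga
Mcm6: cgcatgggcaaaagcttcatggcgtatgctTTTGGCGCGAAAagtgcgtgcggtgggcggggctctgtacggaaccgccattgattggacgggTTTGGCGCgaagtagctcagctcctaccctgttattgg
Pola1: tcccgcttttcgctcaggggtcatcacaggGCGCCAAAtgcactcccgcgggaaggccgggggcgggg
Uhrf1: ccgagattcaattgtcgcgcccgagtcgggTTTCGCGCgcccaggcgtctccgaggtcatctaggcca
Mcm6 holds 3 matches, of which an upstream TTTGGCGC and a TTTCGCGC read on the other strand share letters. The distances are to the RefSeq starts. The annotated gene spans of Cdc6, Gins3 and Uhrf1 (GENCODE M21) begin further upstream, so their printed stretches lie inside those spans. A match is a description of the letters and not a measured site. The ratio of WT replicate 4 to WT replicates 1 to 3 had a median of 2.5 for the 8 members with a match (1.65 to 65.2) and 3.64 for the 21 members with an entry and no match (1.26 to 71.2), so the ranges overlapped.

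When the 3 KO libraries were set against all 4 WT libraries, 34 of the 37 log2 differences (KO minus WT) lay below 0, against 50.0% of all genes, and their median was -0.65, against -3.62e-05 over all genes. None passed edgeR's quasi-likelihood test with Benjamini-Hochberg adjustment at 0.05 in either direction (0.0% of all genes in each). At an unadjusted p under 0.05 there were 4 lower in KO, namely Mcm6, Gins4, Pola1 and Rpa1 (7.89% of all genes), and 0 higher (11.0%). DESeq2 called 2 lower, Pola1 and Rpa1 (3.25% of all genes), and 0 higher (6.41%), and gave no adjusted p for 6 members (Mcm5, Cdc6, Gins2, Mcm10, Lig1 and Uhrf1). limma voom with quality weights called 0 (5.32% of all genes higher and 1.68% lower). The KO libraries all lay below every WT library for 5 members, Mcm6, Gins4, Pola1, Pcna and Rpa1, which is 13.5% of the members against 9.03% of all genes, and above every WT library for 0 (9.46%).

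Leaving out WT replicate 4 changed the sign of most of these differences. The median became 0.085, against 0.019 over all genes, and 23 members lay above 0 (51.5% of all genes) and 14 below. The quasi-likelihood test again called 0 members (0.69% of all genes higher and 0.134% lower). At an unadjusted p under 0.05 there were 6 higher, namely Mcm2, Mcm3, Cdc45, Gins1, Rrm2 and Uhrf1 (12.7%), and 3 lower, namely Mcm6, Pola1 and Rpa1 (9.94%). DESeq2 called Cdc45, Gins1, Rrm2 and Uhrf1 higher (8.97%) and Pola1 and Rpa1 lower (5.47%), and voom called Cdc45, Gins1 and Uhrf1 higher (5.29%) and Pola1 lower (1.79%). The KO libraries all lay above WT replicates 1 to 3 for Mcm2, Mcm3, Cdc45, Gins1 and Uhrf1 and below them for the same 5 genes as before, 13.5% of the members each way against 14.5% and 15.8% of all genes, which is close to the background. Without KO replicate 1 as well, the quasi-likelihood test called Uhrf1 higher (5.43%) and Pola1, Rrm1 and Tyms lower (4.2%), with a median of -0.15 and 14 members above 0 (49.4% of all genes).

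**Figure D3:**
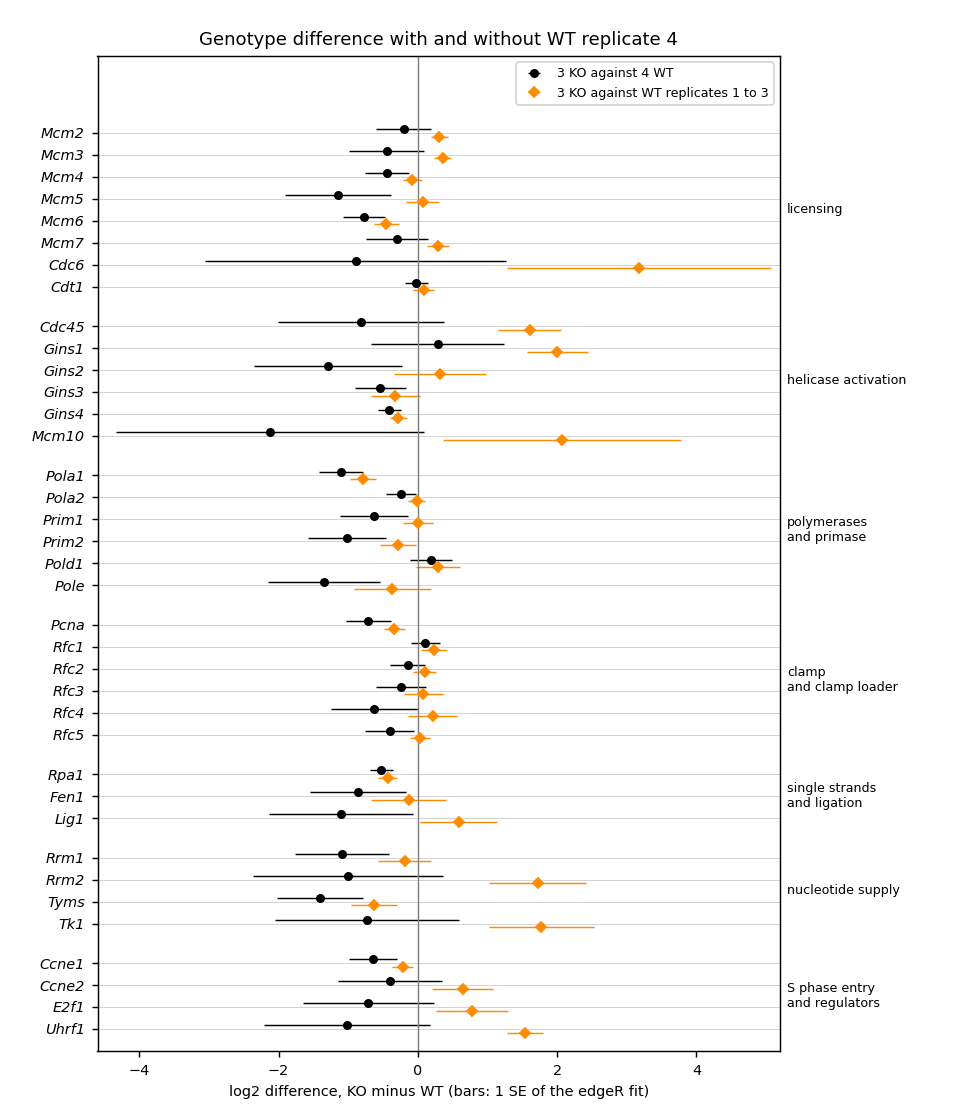
Log2 difference of each gene, KO minus WT, for 3 KO against 4 WT libraries (circles) or WT replicates 1 to 3 (diamonds). Bars are 1 SE, derived from the edgeR test. Of the circles 34 lie left of 0 and of the diamonds 23 lie right of it, and Mcm6, Pola1 and Rpa1 are among the genes that lie left in both.

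Among the licensing genes, Mcm6 was the highest per kilobase of exon in WT replicates 1 to 3, at 64.2 CPM per kb. Mcm6 (chr1:128331590-128359664, minus strand, mm10), a subunit of the helicase ring, was at 225, 169 and 261 CPM (KO) and 292, 279, 328 and 589 CPM (WT). The genotypes did not overlap, with KO lower. The log2 difference was -0.77 ± 0.303 (unadjusted p = 0.0364, adjusted p = 0.23 by the quasi-likelihood test with Benjamini-Hochberg adjustment) and -0.45 ± 0.18 without WT replicate 4 (adjusted p = 0.199). Mcm4, another subunit, was at 128, 132 and 156 CPM (KO) and 155, 125, 160.1 and 313 CPM (WT). The genotypes overlapped, and the difference was -0.45 ± 0.31, or -0.079 ± 0.14 without WT replicate 4.

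Mcm2 and Mcm3, named after their values were seen, went the other way once WT replicate 4 was set aside. Mcm2 was at 121, 124 and 101 CPM (KO) and 93.5, 87.4, 99.1 and 252 CPM (WT), and Mcm3 was at 114, 107 and 114 CPM (KO) and 88.9, 76.4, 97.3 and 347 CPM (WT). All KO libraries lay above WT replicates 1 to 3 and below WT replicate 4 for both genes. Their differences without WT replicate 4 were 0.31 ± 0.12 and 0.36 ± 0.12 (adjusted p = 0.204 and 0.147 by the quasi-likelihood test with Benjamini-Hochberg adjustment), against -0.21 and -0.45 with it. Mcm5 and Mcm7 overlapped between the genotypes, with KO at 46.7 to 88.3 CPM and 69.1 to 97.9 CPM, WT replicates 1 to 3 at 57.4 to 64.2 CPM and 63.4 to 76.2 CPM, and WT replicate 4 at 381 and 211 CPM.

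The make-up of the Mcm2 to Mcm7 ring transcripts differed between libraries. As a share of the summed CPM per kb of the 6 genes, Mcm6 took 36.0%, 38.2% and 37.4% in WT replicates 1 to 3, 26.0% in WT replicate 4, and 27.4%, 23.6% and 32.6% in KO. Mcm3 took 13.6%, 13.0% and 13.8% in WT replicates 1 to 3, 19.0% in WT replicate 4, and 17.3%, 18.6% and 17.7% in KO. Mcm5 took 19.7% in WT replicate 4 and 6.82% to 12.6% in the other 6 libraries. For Mcm3 and Mcm6 the KO libraries and WT replicate 4 lay on the same side of WT replicates 1 to 3. These shares depend on the annotated exon lengths, and they were described and not tested.

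**Figure D4:**
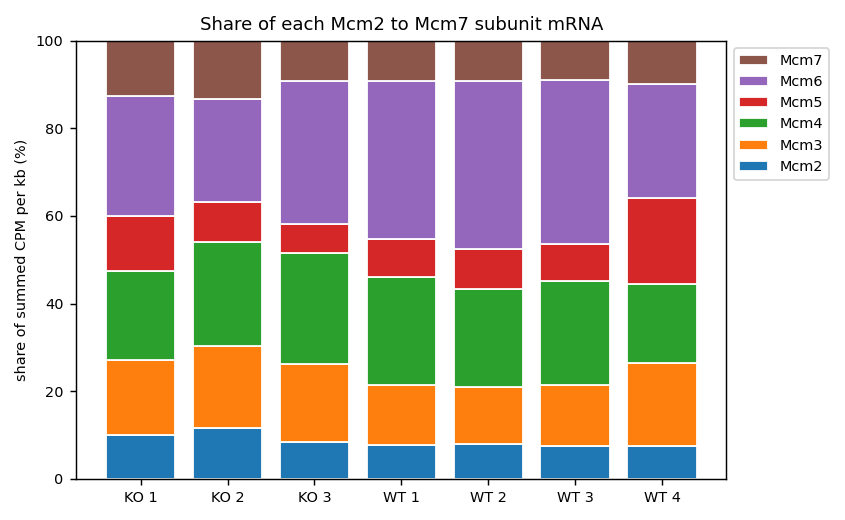
Share of each of Mcm2 to Mcm7 in their summed CPM per kilobase of exon, in percent, for the 7 libraries as stacked bars. Mcm6 takes 36.0% to 38.2% in WT replicates 1 to 3 and 23.6% to 32.6% in the other libraries, and Mcm5 is widest in WT replicate 4.

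Cdc6 and Cdt1, the loaders of that ring, behaved unlike each other. Cdc6 (chr11:98907801-98923940, plus strand, mm10) was at 20.1, 0.815 and 0 CPM (KO) and 0.662, 1.01, 0.614 and 49.7 CPM (WT). It had 2929 counts in WT replicate 4, 754 in KO replicate 1, and 0 to 48 in the other 5 libraries. With 0 counts, KO replicate 3 could hold up to 0.0801 CPM before scaling between libraries. The fitted difference was -0.90 ± 2.17 with WT replicate 4 and 3.18 ± 1.90 without it. Both libraries with many counts stand alone in their genotype. Cdt1, whose protein is controlled mainly by degradation, was at 56.5, 71.6 and 60.0 CPM (KO) and 58.6, 52.2, 67.2 and 76.4 CPM (WT). It had the narrowest range of all the members, and its difference was -0.021 ± 0.168, or 0.085 ± 0.15 without WT replicate 4.

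Among the helicase activation genes, Gins4, a subunit of the GINS complex, was at 50.0, 45.5 and 53.1 CPM (KO) and 61.4, 61.9, 57.2 and 82.3 CPM (WT). Every KO library was below every WT library, with a log2 difference of -0.41 ± 0.16 (unadjusted p = 0.0369, adjusted p = 0.232 by the quasi-likelihood test with Benjamini-Hochberg adjustment), or -0.28 ± 0.12 without WT replicate 4. Gins3 was at 18.4, 17.9 and 7.68 CPM (KO) and 19.1, 18.1, 17.8 and 30.4 CPM (WT). KO replicates 1 and 2 lay among WT replicates 1 to 3, and KO replicate 3 lay well below them. The difference was -0.54 ± 0.37, and -0.32 ± 0.35 without WT replicate 4.

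Gins1 (chr2:150905400-150931280, plus strand, mm10) and Cdc45 (chr16:18780447-18811987, minus strand) were chosen after their values were seen, because every KO library lay above WT replicates 1 to 3. Gins1 was at 4.81, 3.91 and 2.35 CPM (KO) and 0.924, 1.12, 0.710 and 9.33 CPM (WT). Cdc45, the factor that joins GINS on the ring, was at 12.6, 8.01 and 4.02 CPM (KO) and 2.63, 2.49, 2.98 and 50.0 CPM (WT). For both genes each KO library lay above WT replicates 1 to 3 and below WT replicate 4, at KO means of 3.69 ± 1.24 and 8.22 ± 4.32 CPM (SD, n = 3) against 0.919 ± 0.206 and 2.7 ± 0.250 CPM in WT replicates 1 to 3 (SD, n = 3). Without WT replicate 4 the log2 differences were 2.003 ± 0.43 and 1.61 ± 0.45 (adjusted p = 0.0787 and 0.112 by the quasi-likelihood test with Benjamini-Hochberg adjustment, 0.000731 and 0.00858 by DESeq2), and with it they were 0.29 and -0.82. Within KO both genes were highest in replicate 1 and lowest in replicate 3.

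Mcm10, which helps the assembled helicase start to unwind DNA, had the widest range of all the members. Its level was 10.7, 0.838 and 0 CPM (KO) and 1.19, 1.08, 0.461 and 64.7 CPM (WT). As for Cdc6, counts were high in WT replicate 4 (3814) and KO replicate 1 (402) and at most 86 elsewhere. The difference was -2.13 ± 2.21, and 2.07 ± 1.71 without WT replicate 4, with errors close to or above the values themselves. Gins2 was at 1.05 to 5.88 CPM in KO, 2.21 to 2.38 CPM in WT replicates 1 to 3 and 21.3 CPM in WT replicate 4.

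Pola1 (chrX:93304767-93632155, minus strand, mm10), the catalytic subunit of polymerase alpha, had the smallest p of the members when all 7 libraries were used. It was at 29.2, 19.3 and 25.3 CPM (KO) and 46.0, 41.7, 39.7 and 84.6 CPM (WT). No KO library reached any WT library, and WT replicate 4 was at 1.99 times the mean of the other WT libraries. The log2 difference was -1.11 ± 0.31 (unadjusted p = 0.00845, adjusted p = 0.13 by the quasi-likelihood test with Benjamini-Hochberg adjustment, 0.0156 by DESeq2). Without WT replicate 4 it was -0.79 ± 0.18 (adjusted p = 0.0838 by the quasi-likelihood test, 0.00371 by DESeq2 and 0.0494 by voom). For its partner the genotypes overlapped. Pola2, the second subunit of polymerase alpha, was at 64.6, 64.7 and 77.8 CPM (KO) and 71.5, 67.7, 70.7 and 116 CPM (WT), with a difference of -0.24 ± 0.22 that became -0.015 ± 0.12 without WT replicate 4.

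The primase subunits Prim1 and Prim2 were at 18.7 to 30.01 CPM and 8.96 to 15.3 CPM in KO, 23.0 to 27.7 CPM and 13.2 to 16.8 CPM in WT replicates 1 to 3, and 79.4 and 53.5 CPM in WT replicate 4. The genotypes overlapped for both. Pold1, the catalytic subunit of polymerase delta, was at 150.3, 69.3 and 71.8 CPM (KO) and 80.2, 67.3, 91.0 and 102 CPM (WT). It was high in KO replicate 1 only, and its difference of 0.19 ± 0.298 became -0.27 without that library and 0.29 without WT replicate 4. Pole, the catalytic subunit of polymerase epsilon, was at 3.38 to 17.5 CPM in KO, 12.4 to 16.4 CPM in WT replicates 1 to 3 and 71.6 CPM in WT replicate 4, with a difference of -1.35 ± 0.803 that became -0.36 ± 0.55 without WT replicate 4.

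Pcna, the clamp that holds the polymerases on DNA, was at 77.1, 83.4 and 78.9 CPM (KO) and 86.8, 119.8, 95.9 and 221 CPM (WT). The KO libraries lay close together and below all WT libraries, and the difference was -0.71 ± 0.32 (unadjusted p = 0.0607, adjusted p = 0.292 by the quasi-likelihood test with Benjamini-Hochberg adjustment), or -0.34 ± 0.15 without WT replicate 4 (adjusted p = 0.258 by that test). Of the clamp loader, Rfc1, its largest subunit, was at 108, 94.6 and 68.2 CPM (KO) and 83.5, 67.2, 79.6 and 104 CPM (WT), and Rfc2 at 133, 99.4 and 87.5 CPM (KO) and 104, 95.7, 100.3 and 173 CPM (WT). Neither separated the genotypes, with differences of 0.11 ± 0.21 and -0.15 ± 0.25, or 0.24 ± 0.19 and 0.096 ± 0.165 without WT replicate 4. Rfc3, Rfc4 and Rfc5 were at 13.5 to 27.3, 8.62 to 19.6 and 39.4 to 51.6 CPM in KO and at 36.4, 56.7 and 110.4 CPM in WT replicate 4. WT replicates 1 to 3 lay inside the KO ranges, at 18.2 to 18.4, 12.02 to 15.6 and 45.3 to 47.8 CPM.

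Rpa1 (chr11:75298166-75348324, minus strand, mm10), the large subunit of the protein that coats single-stranded DNA, was at 236, 203 and 189 CPM (KO) and 297, 245, 306 and 355 CPM (WT). All KO libraries lay below all WT libraries, at means of 209 ± 24.2 CPM in KO libraries and 301 ± 45.4 CPM in WT libraries. WT replicate 4 was only 1.26 times the mean of the other WT libraries, the smallest ratio among the members. The difference was -0.52 ± 0.16 (unadjusted p = 0.0124, adjusted p = 0.15 by the quasi-likelihood test with Benjamini-Hochberg adjustment, 0.0476 by DESeq2) and -0.43 ± 0.14 without WT replicate 4 (adjusted p = 0.136 and 0.0472 by the same tests). Lig1, the ligase that seals Okazaki fragments, was at 51.7, 18.6 and 11.1 CPM (KO) and 19.5, 13.1, 21.6 and 178 CPM (WT). KO replicate 1 and WT replicate 4 were high and the rest at 11.1 to 21.6 CPM, with a difference of -1.10 ± 1.03 that became 0.58 without WT replicate 4. Fen1, which trims the fragments before ligation, was at 7.21 CPM in WT replicate 4 and 1.02 to 3.18 CPM elsewhere, and its exons overlap other measured genes.

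Rrm1 and Rrm2 form ribonucleotide reductase, which makes deoxynucleotides. Rrm2 (chr12:24708241-24714146, plus strand, mm10), the subunit made mainly in S phase, was at 174, 54.0 and 21.2 CPM (KO) and 29.9, 24.0, 21.4 and 587 CPM (WT). Per kilobase it was the highest of the members in WT replicate 4, at 212 CPM per kb, and it was at 9.06 CPM per kb in WT replicates 1 to 3. KO replicate 3 lay just below WT replicates 1 to 3, and KO replicates 1 and 2 lay above them. The difference was -0.998 ± 1.36 with WT replicate 4 and 1.72 ± 0.702 without it (adjusted p = 0.214 by the quasi-likelihood test with Benjamini-Hochberg adjustment, 0.0365 by DESeq2). Rrm1 was at 122, 52.4 and 44.3 CPM (KO) and 84.5, 91.0, 73.1 and 370.2 CPM (WT). There KO replicates 2 and 3 lay below WT replicates 1 to 3 and KO replicate 1 above, with a difference of -1.09 ± 0.68, or -0.19 ± 0.38 without WT replicate 4.

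Tyms and Tk1, which make and recycle thymidine nucleotides, were named after their values were seen. Tyms was at 37.2, 19.6 and 16.2 CPM (KO) and 33.8, 43.5, 35.1 and 146 CPM (WT), and Tk1 at 33.4, 10.5 and 3.48 CPM (KO) and 5.31, 4.42, 4.09 and 90.9 CPM (WT). For Tyms, KO replicates 2 and 3 were the lowest libraries, while for Tk1 KO replicate 3 was the lowest and KO replicates 1 and 2 lay above WT replicates 1 to 3. The differences were -1.41 ± 0.61 (unadjusted p = 0.0526) and -0.73 ± 1.32, and without WT replicate 4 -0.62 ± 0.33 and 1.77 ± 0.76. The 4 nucleotide supply genes thus gave values below 0 for Rrm1 and Tyms and above 0 for Rrm2 and Tk1 once WT replicate 4 was set aside.

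Uhrf1 (chr17:56303321-56323486, plus strand, mm10), which brings the maintenance DNA methyltransferase to newly copied DNA, was at 34.0, 19.4 and 21.8 CPM (KO) and 8.37, 8.17, 9.24 and 177 CPM (WT). WT replicates 1 to 3 lay close together, every KO library lay above them, and WT replicate 4 was far above all. The difference was -1.02 ± 1.20 with WT replicate 4. Without it the difference was 1.54 ± 0.26, the smallest p of the members in that comparison (unadjusted p = 0.000749, adjusted p = 0.0572 by the quasi-likelihood test with Benjamini-Hochberg adjustment, 1.42e-06 by DESeq2, 0.00891 by voom). Ccne1, the E cyclin that drives entry into S phase, was at 32.8, 32.6 and 37.6 CPM (KO) and 36.5, 43.5, 40.1 and 94.7 CPM (WT). KO replicate 3 lay above WT replicate 1, and the difference was -0.65 ± 0.35, or -0.22 ± 0.14 without WT replicate 4. Ccne2 and E2f1, the factor that switches on many of the members, were highest in WT replicate 4 at 41.0 and 42.5 CPM, next in KO replicate 1 at 18.1 and 15.7 CPM, and at 5.399 to 13.1 and 3.81 to 7.08 CPM in the other libraries.

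Of 94 further replication and G1/S genes, 93 were measured. The quasi-likelihood test called 0 (0.0% of all genes each way). At an unadjusted p under 0.05 there were 9 lower (7.89% of all genes) and 2 higher (11.0%). DESeq2 called 2 lower, Rpa2 and Rnaseh2c (3.25%), and 1 higher, Tfdp2 (6.41%), and gave no adjusted p for 12. voom called Rpa2 lower (1.68%) and Shmt1 higher (5.32%). Of the log2 differences 73 lay below 0 (50.0% of all genes), and 54 lay above 0 without WT replicate 4 (51.5% of all genes). Rpa2, the partner of Rpa1, was at 83.6, 96.8 and 119 CPM (KO) and 169.9, 177, 181 and 189 CPM (WT). It was below WT in every KO library, with a difference of -0.84 ± 0.14 (adjusted p = 0.0651 by the quasi-likelihood test with Benjamini-Hochberg adjustment), or -0.81 ± 0.16 without WT replicate 4, which was at 1.08 times the mean of the other WT libraries. Without KO replicate 3 this test called Rpa2 alone of the 93, and the share of all genes called there is not reported here.

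Rnaseh2c, a subunit of the enzyme that removes RNA from DNA, was at 60.7 ± 2.13 CPM in KO libraries and 84.2 ± 7.47 CPM in WT libraries, with a difference of -0.47 ± 0.12. The origin genes Orc5 and Ticrr differed by -0.47 ± 0.20 and -1.76 ± 0.87, and the fork protection gene Tipin by -0.50 ± 0.31. Dctpp1, which clears modified nucleotides, and Cad, which starts pyrimidine synthesis, differed by -0.92 ± 0.33 and -0.38 ± 0.21. Dnmt1, the maintenance methyltransferase, was at 153 ± 10.6 CPM in KO libraries and 269 ± 119 CPM in WT libraries, and Slbp, which binds histone mRNA, at 133 ± 19.6 CPM in KO libraries and 212 ± 61.6 CPM in WT libraries, with differences of -0.81 ± 0.31 and -0.68 ± 0.23. Without WT replicate 4 the difference was -0.76 for Ticrr, -0.14 for Tipin, -0.59 for Dctpp1, -0.46 for Dnmt1 and -0.45 for Slbp, all nearer to 0, while Rnaseh2c, Orc5 and Cad were at -0.47, -0.52 and -0.403. None of these passed the quasi-likelihood test with Benjamini-Hochberg adjustment.

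Tfdp2, a dimer partner of E2F factors, was at 197, 33.2 and 20.3 CPM (KO) and 12.6, 15.6, 16.4 and 14.7 CPM (WT). KO replicate 1 was far above the rest, and the difference of 2.50 ± 0.72 was 0.85 without it. Rbl1, the p107 member of the RB family, was at 77.1 ± 5.61 CPM in KO libraries and 106 ± 13.2 CPM in WT libraries. The D cyclin Ccnd1 was at 1.95 ± 2.71 CPM in KO libraries and 0.305 ± 0.0627 CPM in WT libraries, above 1 CPM in KO replicate 1 only. Ccnd3, the D cyclin of lymphocytes, was at 284 ± 44.2 CPM in KO libraries and 347 ± 25.7 CPM in WT libraries. The inhibitors of cyclin-dependent kinases Cdkn2c and Cdkn1b differed by -0.74 ± 0.79 and -0.12 ± 0.167, or 0.053 and -0.055 without WT replicate 4.

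For comparison, 20 genes of mitosis (such as Ccnb1, Top2a and Birc5) summed to 945, 178 and 104 CPM (KO) and 169, 146, 138 and 3966 CPM (WT). As for the replication genes, WT replicate 4 was highest, KO replicate 1 next and KO replicate 3 lowest, with a wider spread. The median ratio of WT replicate 4 to WT replicates 1 to 3 was 35.7 (11.1 to 118), against 3.64 for the replication genes, and that of KO replicate 1 to KO replicates 2 and 3 was 6.16, against 1.47. All 20 log2 differences lay below 0 with WT replicate 4 (median -1.51) and above 0 without it (median 1.71). Without KO replicate 1 as well, their median was 0.25.

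Markers of B cells and red cells were highest in KO replicate 1. The 11 B cell markers summed to 10741, 1164 and 661 CPM (KO) and 318, 245, 352 and 683 CPM (WT), and the 9 erythroid markers to 46439.8, 6482 and 243 CPM (KO) and 8.17, 469, 2.44 and 44.7 CPM (WT). The 8 T cell markers summed to 3712, 8922 and 8733 CPM (KO) and 10441, 8891, 9533 and 8195 CPM (WT). KO replicate 1 therefore had the lowest T cell and the highest B cell and erythroid levels, beside replication genes second to WT replicate 4. The part of these cells in its replication values was not tested. In the lists, the highest B cell genes were Ighm and Ighd, at 3745 and 1136 CPM in KO replicate 1. Hbb-bs and Hba-a1 led the erythroid list there at 26764 and 9180.0 CPM. The B cell sum of WT replicate 4 was mostly Ighm, at 664 CPM.

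In WT replicate 4, 4 of the 11 B cell markers were at 0 CPM (Ms4a1, Pax5, Blk and Fcer2a) and 3 were above each of WT replicates 1 to 3, namely Ighm, Ighd at 6.61 CPM and Cd79a at 1.87 CPM. Ighd was at 0.653 to 0.763 CPM and Cd79a at 0.653 to 1.19 CPM in WT replicates 1 to 3. Of the 9 erythroid markers 1 was at 0 and 2 were above WT replicates 1 to 3, with Klf1 at 2.49 CPM against 0.207 to 0.583 CPM. Of the other lists, S100a8 and Cd14 were at 0 CPM, S100a9 at 0.322 CPM against 0 to 0.0224 CPM, and Cd4 at 0.119 CPM. The part of such cells in the values of WT replicate 4 was not tested. Its T cell sum of 8195 CPM lay below the 8891 to 10441 CPM of the other WT libraries. The 10 macrophage and monocyte markers summed to 1573, 738 and 2026 CPM (KO) and 2093, 2581, 1530.0 and 479.9 CPM (WT). In WT this was mostly Ly6c2, at 442 to 2526 CPM, which activated CD8 T cells also carry. Csf1r and C1qb were at 239 and 171 CPM in KO replicate 3, 150.2 and 76.6 CPM in KO replicate 1, and at most 9.19 CPM in the rest, while Lyz2 was at 725 CPM in KO replicate 1, 21.2 and 38.9 CPM in KO replicates 2 and 3, and at most 7.52 CPM in WT. The part of these cells in the replication values was not tested. The 2 neutrophil genes summed to 305 CPM in KO replicate 1, 20.95 CPM in KO replicate 2 and at most 0.358 CPM elsewhere. The 7 germinal centre and plasma cell genes, led by Xbp1, Jchain and Fas, summed to 849, 174 and 197 CPM (KO) and 255, 257, 252 and 195 CPM (WT), and the 3 CD4 T cell genes to 186, 9.22 and 27.6 CPM (KO) and 34.1, 32.9, 30.5 and 9.29 CPM (WT). Of these 3, Cd4 itself was at 110, 1.19 and 6.19 CPM (KO) and 0, 0.157, 0 and 0.119 CPM (WT). Zbtb7b and Cd40lg overlapped between the genotypes. Which cells carried the Cd4 RNA was not tested.

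**Figure D5:**
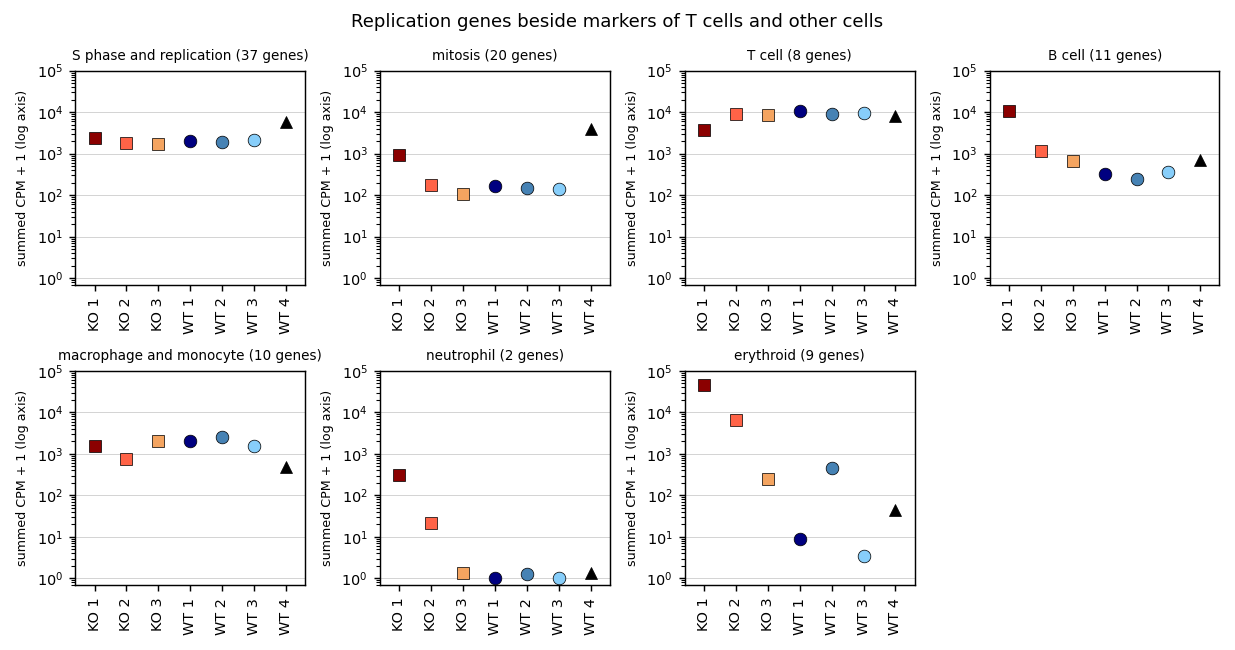
Summed CPM, with 1 CPM added and on a log axis, of the 37 replication genes, the 20 mitosis genes and the markers of T cells, B cells, red cells, neutrophils, and macrophages and monocytes, with 1 point per library. KO replicate 1 is highest for B cell, erythroid and neutrophil markers and lowest for T cell markers, while WT replicate 4 is highest for the replication and mitosis genes.

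The exons of 10 members overlap another measured gene on the opposite strand (Mcm7, Cdc45, Gins2, Rfc2, Rfc4, Rfc5, Fen1, Lig1, Tk1 and Ccne2). Whether the counting used strand is not given in these sources, so reads of the partner gene may be counted in these 10.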

How the data were processed

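RNA-seq of total RNA gave 7 libraries of mouse CD8 T cells, 3 KO and 4 WT, grouped by the labels. Per the submitters' processing notes, the authors trimmed reads with Trim Galore 0.6.0, aligned them with STAR 2.7.8 to mm10 and used DESeq2, with no version stated. For the read counter, its annotation, strand setting and filters nothing is given in the sources used here. Raw counts per gene and a table of log2 CPM, which also holds the symbols, were deposited by the authors. Recomputing log2 CPM with edgeR (TMM, prior count 2) gave the deposited log2 values to within 4.99e-09. CPM in the text are TMM-scaled and come from the deposited counts. A count of 3, the limit that a count of 0 allows, is worth 0.0397 to 0.0801 CPM, depending on the library total, and covers counting error only. Coordinates and exon lengths came from GENCODE M21. The length of a gene counts the bases of all its annotated exons, which can exceed the length of the mRNA present. Ranks and shares in CPM per kb between genes depend on that length.

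Genotypes were compared across all 16156 genes with edgeR 4.0.16 in R 4.3.3 (quasi-likelihood fit, genotype as the only term, Benjamini-Hochberg adjustment, threshold 0.05), where filterByExpr removed 0 genes. The SE was derived as the absolute log2 difference divided by the square root of the F statistic of that test. The alternatives were DESeq2 1.42.0, limma 3.58.1 (voom with quality weights), other scalings, other filters on low counts, a replicate block, leaving out each library in turn, and leaving out KO replicate 1 with WT replicate 4. The code was tested on simulated data. The rule for named genes took, in each role, the 2 members with the highest mean CPM, and over all members the 3 with the smallest p and the 3 with the largest and smallest range of log2 CPM, which gave 19 members; from each list of further genes it took the 2 with the smallest p, and from each marker list the 2 with the highest mean CPM. Other genes named with values were chosen after these were seen. The members and all gene lists were chosen with earlier results of these data known. Promoter windows were from RefSeq (GRCm38.p6). Values of some genes of the lists are not reported here.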

Additional observations from a re-analysis of the deposited data

Results flagged for a closer look

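In the 4 WT libraries, the gap between the highest or the lowest library and its neighbour, divided by the whole range, was set against the limit of Dixon's test. It passed for 22 of the 37 members, always with WT replicate 4 as the highest. Chance gives a pass at either end in about 1 of 20 groups, and 12.9% of all genes passed at either end in these libraries. The ratios of the licensing genes were 0.8819 for Mcm2, 0.8401 for Mcm3, 0.9407 for Mcm5, 0.847 for Mcm7 and 0.891 for Cdc6. Those of the helicase activation genes were 0.941 for Cdc45, 0.967 for Gins2 and 0.865 for Gins3. The polymerase and primase genes gave 0.899 for Pola2, 0.848 for Prim1, 0.8291 for Prim2 and 0.838 for Pole, and the clamp loader gave 0.859 for Rfc2, 0.991 for Rfc3, 0.831 for Rfc4 and 0.939 for Rfc5. Nucleotide supply gave 0.865 for Rrm1, 0.8996 for Rrm2 and 0.916 for Tk1, and the regulators 0.917 for Ccne2, 0.8804 for E2f1 and 0.9601 for Uhrf1.

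Among the further genes Cdkn2c, an inhibitor of the D cyclin kinases, gave 0.837, again with WT replicate 4 highest. The sum over the 37 members gave 0.912 and that over the 20 mitosis genes 0.939, both with WT replicate 4 highest. WT replicate 4 was the lowest of the 4 WT libraries for the summed germinal centre and plasma cell markers (0.921) and the CD4 T cell markers (0.9125). In WT the CD4 T cell sum was mostly Zbtb7b and Cd40lg, while Cd4 itself was at 0 to 0.157 CPM.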

How the results depend on the processing

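The quasi-likelihood test called 0 members with either scaling, either filter, the replicate block and each library left out in turn (0 to 0); DESeq2 called 2, and leaving out KO replicate 1 with WT replicate 4 gave 4. Without WT replicate 4 the count of 0 became 6 with DESeq2 (14.4% of all genes), 4 with voom (7.08%) and 0 to 4 with a further library left out (4 without KO replicate 1, 1 without KO replicate 2 and 3 without KO replicate 3, where 9.63%, 2.37% and 6.41% of all genes were called). For the 93 further genes it became 3 with DESeq2, 2 with voom, 4 without KO replicate 1 and WT replicate 4 (9.63% of all genes), and 0 to 1 with each library left out. The 1 was Rpa2 without KO replicate 3, where the share of all genes called is not reported here. The median log2 difference of the members (-0.65) ran from -0.83 to 0.085 with each library left out, positive only without WT replicate 4. The labels do not say whether the replicate numbers pair the libraries. Deviations of same-numbered libraries correlated at -0.118, -0.00851 and 0.114, and those of other-numbered libraries at -0.141 to 0.161. With so few libraries these values cannot decide whether the numbers pair them. With the replicate block the median was 0.015 and 17 members turned positive, and WT replicate 4, alone in its block, added nothing to the genotype term. Their values were 0.30 for Mcm2, 0.36 for Mcm3, 0.018 for Mcm5, 0.28 for Mcm7, 0.16 for Cdc6, 0.079 for Cdt1, 1.47 for Cdc45, 0.072 for Rfc2, 0.014 for Rfc3, 0.13 for Rfc4, 0.015 for Rfc5, 0.33 for Lig1, 1.23 for Rrm2, 1.24 for Tk1, 0.49 for Ccne2, 0.56 for E2f1 and 1.502 for Uhrf1. With voom 14 members turned positive, at 0.28 for Mcm2, 0.30 for Mcm3, 0.23 for Mcm7, 0.10 for Cdt1, 1.38 for Cdc45, 0.013 for Prim1, 0.0022 for Rfc2, 0.13 for Rfc4, 0.074 for Lig1, 0.90 for Rrm2, 0.93 for Tk1, 0.47 for Ccne2, 0.36 for E2f1 and 1.41 for Uhrf1. Without KO replicate 1 and WT replicate 4, 13 members and 1 further gene changed sign, at 0.29 for Mcm2, 0.36 for Mcm3, 0.20 for Mcm7, 0.17 for Cdt1, 1.17 for Cdc45, 0.048 for Pola2, -0.15 for Pold1, 0.063 for Rfc4, 0.60 for Rrm2, 0.62 for Tk1, 0.26 for Ccne2, 0.092 for E2f1, 1.28 for Uhrf1 and 0.011 for Cdkn1b (-0.22 to -0.055 with each library left out). Cdt1 also changed sign with DESeq2 size factors (0.0027), DESeq2 (0.0027) and upper-quartile scaling (0.040). With each library left out, sign changes occurred only without WT replicate 4 for Mcm2 (-0.36 to 0.31), Mcm3 (-0.67 to 0.36), Mcm5 (-1.46 to 0.071), Mcm7 (-0.48 to 0.29), Cdc6 (-4.97 to 3.18), Cdc45 (-1.27 to 1.60), Gins2 (-2.35 to 0.31), Mcm10 (-5.31 to 2.07), Prim1 (-0.82 to 0.0014), Rfc2 (-0.34 to 0.10), Rfc3 (-0.58 to 0.077), Rfc4 (-0.85 to 0.21), Rfc5 (-0.53 to 0.028), Lig1 (-1.97 to 0.58), Rrm2 (-2.14 to 1.72), Tk1 (-1.90 to 1.77), Ccne2 (-0.80 to 0.65), E2f1 (-1.41 to 0.78), Uhrf1 (-1.38 to 1.54) and Cdkn2c (-1.74 to 0.053). They occurred only without KO replicate 1 for Pold1 (-0.27 to 0.39) and Rfc1 (-0.038 to 0.28), without WT replicate 1 or 3 for Gins1 (-0.039 to 2.003), and without any of 4 libraries for Cdt1 (-0.13 to 0.085). The log2 differences of summed markers also changed sign, for germinal centre and plasma cells (-0.36 to 0.78), macrophages and monocytes (-0.60 to 0.34) and CD4 T cells (-0.54 to 1.55). The cause of the changes under voom, DESeq2 and the other scalings was not tested. Cdc6 and Mcm10 had under 90 counts in 5 libraries, which limits what they can show.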
